A study of Mus musculus with 32 samples.

Results

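Eomes, Mixl1, Gata4, Gata6, Sox17, Foxa2 and Cxcr4 are genes of the primitive streak and of the mesendoderm and endoderm that arise from it, and Pax6, Nes and Sox1 are genes of the neural lineage. These 10 genes, chosen by symbol as markers of commitment, were followed through all 11 culture conditions of a study of mouse embryonic stem cells (ESCs), out of 51826 genes in the count table. All 10 were found, and all 10 passed the filter on low counts. In the gastrulating embryo WNT and NODAL signalling at the primitive streak turn on Eomes and Mixl1, and descendants use FOXA2, SOX17 and the GATA factors to build endoderm. GATA4, GATA6 and SOX17 also specify primitive endoderm, the extraembryonic sister lineage of the naive epiblast from which ESCs derive. Neural fate follows where those signals are low, with Sox1 an early gene of the neural plate, Pax6 a transcription factor of neural progenitors and Nes the gene for their intermediate filament nestin. The transcription factor Eomes also acts in the trophoblast, and Nes is not confined to neural cells.

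RNA was sequenced from 32 libraries of the ESC line RGd2, which carries a destabilised GFP at the Rex1 locus as a reporter of the naive state, and of mutant lines made from it with a pair of guide RNAs for each gene. RGd2 cells were held in 2i, a medium with a MEK inhibitor and a GSK3 inhibitor (RGd2 2i), were carried for 5 passages in 2i (RGd2 2i-p5), were left for 16 h (RGd2 N16h) or 72 h (RGd2 N72h) in N2B27 without inhibitors, or were carried for 2 passages in the GSK3 inhibitor alone (RGd2 CHp2). Mutants lacked Rbpj, the DNA-binding partner of Notch (Rbpj-KO, in 2i and at N16h), lacked the ETS factor Etv5 (Etv5-KO, in 2i and at N16h), lacked both and were kept for 5 passages in the GSK3 inhibitor (ER-dKO CHp5), or lacked these and Tcf3, whose gene symbol is Tcf7l1, and were kept for 5 passages in N2B27 (ETR-tKO Np5). By the labels every condition had 3 libraries except Etv5-KO N16h, which had 2. The methods of the study instead name RGd2 N16h as the condition with 2, so the labels, which were followed, and the methods differ on both N16h groups, which the comparisons at N16h below rest on. In each RGd2 condition 2 libraries came from the parental line and 1 from a clonal line derived from it. Within each mutant condition every library came from a line with its own label. The Rbpj-KO lines c28, c33 and c36 and the Etv5-KO lines c17 and c1 were sampled both in 2i and at N16h. The ETR-tKO labels (Tc1)ERc2 and (Tc1)ERc10 share the prefix Tc1, so these lines may descend from 1 clone and not be independent. The methods call the lines of each knockout independently derived. All lines carry the reporter, and the methods state for all of them that they were expanded with a GSK3 inhibitor and LIF and moved to 2i ahead of an assay. N72h, CHp2 and the double and triple mutants were compared here with RGd2 2i-p5, and RGd2 2i as their reference was tried as an alternative. The double and triple mutants differ from RGd2 2i-p5 in genotype and medium at once. ER-dKO CHp5 differs from RGd2 CHp2, and ETR-tKO Np5 from RGd2 N72h, in genotype and time in culture. In these comparisons genotype and culture cannot be told apart.

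Gene counts ranged from 5986857 to 71439411 per library, and spike-in RNA took 0.991% to 1.52% of the counts. The shallowest library was RGd2 2i replicate 33, from the clonal line. Libraries of a condition differed by a chi-square per gene of 3.39 to 44.3, where counting noise gives about 1, so none was another library read again. This cannot show whether libraries came from separate cultures. Expression levels are given as FPKM, fragments per kilobase of the gene model at a common library total, and a fold change is a log2 difference of counts scaled by the spike-ins, from edgeR's quasi-likelihood test in 1 model of all libraries, with its standard error (SE). A gene was called where the p-value, adjusted by Benjamini-Hochberg over 19037 genes, was under 0.05 and the mean was at least 1 FPKM in either group. A gene below that level in both groups could not be called, so a count of calls in a list of genes is limited by how many of them reached it. Statements that libraries of compared groups did not overlap are descriptive, since the share of all genes without overlap was not computed. The spike-in scaling set the median of all genes apart from that under TMM by −0.35 to 0.45 on the log2 scale. Etv5 lay at 9.76 to 30.7 FPKM in libraries of lines without it and at 88.5 to 156 in the others, and Rbpj at 2.72 to 3.60 in Rbpj-KO 2i against 12.1 to 12.9 in RGd2 2i. In ER-dKO Rbpj was at 3.25, 3.84 and 9.88 FPKM and in ETR-tKO at 4.85 to 6.67, against 9.80 to 11.04 in RGd2 2i-p5. The library labelled ER-dKO replicate 12 was thus not below RGd2 2i-p5 in Rbpj, but was below the 12.3 to 12.7 of RGd2 CHp2. Tcf7l1 lay at 0.294 to 1.10 FPKM in ETR-tKO against 5.16 to 6.27 in RGd2 2i-p5. Reads outside a deletion were still counted. No label says how the libraries of the parental line were separated, so for RGd2 the p-values measure the spread between these samples.

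Coordinates follow the count table, which uses GRCm38/mm10 and the Gencode models of the study. Eomes (ENSMUSG00000032446.14) spans chromosome 9, 118478212 to 118486132, and Mixl1 (ENSMUSG00000026497.7) chromosome 1, 180693043 to 180697034. Gata4 (ENSMUSG00000021944.15) lies on chromosome 14 at 63198922 to 63271692, Gata6 (ENSMUSG00000005836.8) on chromosome 18 at 11052510 to 11085635, and Sox17 (ENSMUSG00000025902.13) on chromosome 1 at 4490931 to 4497354. Foxa2 (ENSMUSG00000037025.11) is at 148042877 to 148046969 of chromosome 2, and Cxcr4 (ENSMUSG00000045382.6) at 128588199 to 128592293 of chromosome 1. Pax6 (ENSMUSG00000027168.21) covers 105668900 to 105697364 of chromosome 2, Nes (ENSMUSG00000004891.16) 87971078 to 87980451 of chromosome 3, and Sox1 (ENSMUSG00000096014.1) 12395295 to 12400126 of chromosome 8. Values are sums over all exons of a gene. Sox1 overlaps Sox1ot and Gm25239 on the same strand, so its counts are less certain than those of the other members. Eomes, Gata6, Sox17 and Pax6 overlap a gene on the opposite strand only, and counting was strand-specific.

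Most of these genes were barely expressed in any culture. Nes and Eomes were the only members above 10 FPKM in any condition mean, Nes reaching 45.9 ± 3.32 (SD, n = 3) in RGd2 N72h and Eomes 11.1 ± 1.19 (SD, n = 3) in Rbpj-KO 2i. Both lay at or above 1 FPKM in 10 of 11 conditions. Pax6 and Sox1 reached 1 FPKM in 3 conditions each, Gata6 in 2, and Gata4 and Cxcr4 in 1. Mixl1, Sox17 and Foxa2 stayed below 1 FPKM in every condition mean, with highest single libraries of 0.728, 0.813 and 0.743. Foxa2 was at 3 counts or fewer in 12 of 32 libraries, Gata6 in 11 and Sox17 in 9, and at 0 counts in 4, 3 and 1. Counts of 0 to 3 cannot be told apart from absence at this depth, where 1 count was worth 0.00286 FPKM for the long Pax6 model and 0.0185 for Cxcr4 in a library of median size. Per condition, between 2 and 5 of the 10 members reached 1 FPKM, against 21.4% to 22.5% of all genes in the table. In bulk RNA a low mean cannot show whether few cells or many cells hold the transcript.

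**Figure D1:**
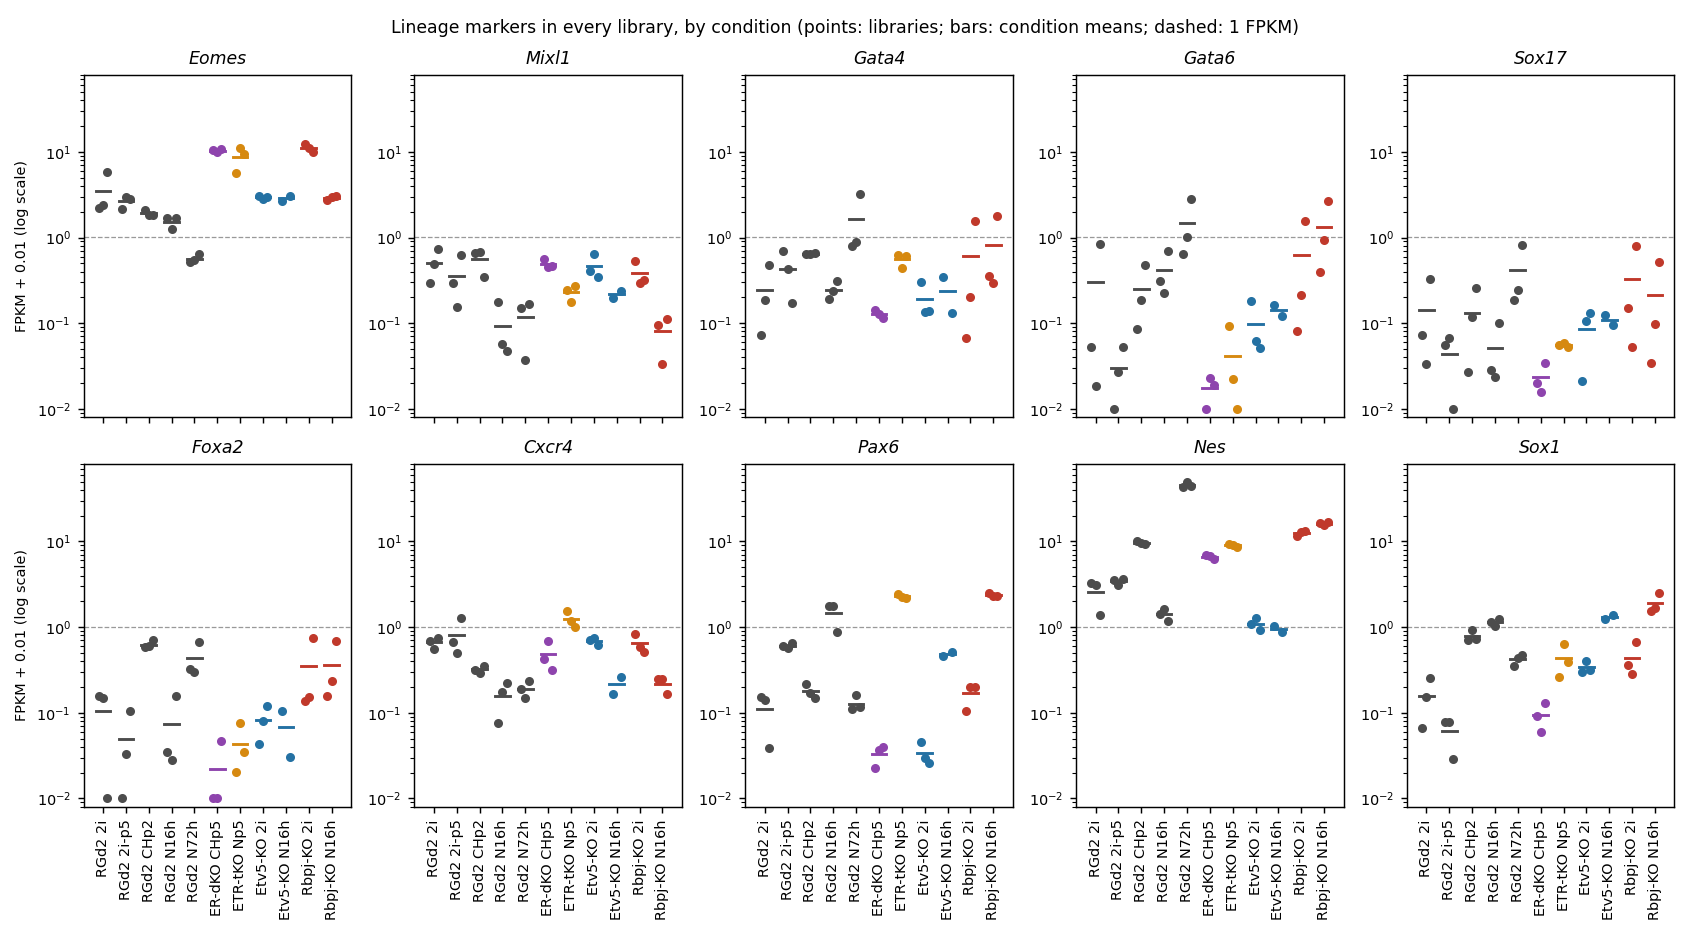
FPKM of the 10 markers in each of 32 libraries (points; y axis FPKM + 0.01 on a log scale; bars are condition means; the dashed line is 1 FPKM; grey RGd2, red Rbpj-KO, blue Etv5-KO, purple ER-dKO, orange ETR-tKO). Nes stands highest at RGd2 N72h with a mean of 45.9 FPKM, Eomes in Rbpj-KO 2i, ER-dKO and ETR-tKO with 11.1, 10.4 and 8.71, and most other points lie below 1 FPKM.

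The genes closest in pattern to each of the 7 members that reached 1 FPKM were listed over the 11 condition means of log2 normalised counts, as a description of points that share libraries and depth. For Eomes they were Bloc1s4 (r = 0.95), AA414768 (0.94) and Qtrt1 (0.94), and for Nes Arfgef3 (0.95), Mettl22 (0.93) and A330023F24Rik (0.93). Pax6 was followed by Plekhd1 (0.93), Fgf1 (0.92) and Mapk1ip1 (0.90), and Sox1 by Car2 (0.95), Itga3 (0.95) and Arl6 (0.93). Gata6 was closest to Itpripl2 (0.96), D030068K23Rik (0.95) and Tie1 (0.95), Gata4 to Hdgfl3 (0.94), Gm10575 (0.94) and Fgl2 (0.94), and Cxcr4 to Alg13 (0.96), Tm9sf4 (0.94) and Brpf3 (0.93). No member was among the 3 nearest genes of these 7, and nearest genes were not listed for Mixl1, Sox17 and Foxa2. Between members, the highest r over these means joined Gata6 with Foxa2 (0.79), Sox17 with Foxa2 (0.79) and Gata6 with Sox17 (0.78), while Nes had r = 0.07 with Pax6 and 0.03 with Sox1. The nearest genes were picked for the highest r of all genes tested, so high values follow from the choice. Some were near the floor: Gm10575, Fgl2, Tie1 and A330023F24Rik had highest condition means of 0.126, 0.116, 0.150 and 0.198 FPKM.

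The first comparison asked what happened to the markers in RGd2 cells at 16 h after release from 2i. The early neural genes Pax6 and Sox1 rose and Eomes and Nes fell. Pax6 had 0.143, 0.133 and 0.0286 FPKM in the RGd2 2i libraries and 1.75, 1.73 and 0.855 at N16h, a log2 fold change of 3.28 (SE 0.27, adjusted p = 5.27e-13, edgeR). Sox1 had 0.0559, 0.143 and 0.242 in 2i and 1.13, 1.02 and 1.24 at N16h (log2 fold change 3.03, SE 0.38, adjusted p = 2.45e-08, edgeR). For both genes every N16h library lay above every 2i library, and both remained near 1 FPKM. Eomes had 2.20, 2.41 and 5.79 in 2i and 1.67, 1.24 and 1.67 at N16h (−1.23, SE 0.22, adjusted p = 1.36e-05, edgeR), with no overlap of the libraries. Nes had 3.26, 3.06 and 1.38 in 2i and 1.40, 1.64 and 1.17 at N16h (−1.21, SE 0.18, adjusted p = 1.14e-06, edgeR), and here the shallow clonal library of 2i lay among those of N16h. Mixl1, a homeobox gene of the streak, and Cxcr4, a chemokine receptor of definitive endoderm, passed the test below 1 FPKM, at −2.58 and −2.39. Gata4, Gata6, Sox17 and Foxa2 did not pass it. In a model with the cell line as a block, Gata6 passed it below 1 FPKM (1.38, adjusted p = 0.0411, edgeR).

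At N16h 4 of the 10 members were thus called, 2 higher and 2 lower, and 4 had reached the expression minimum. Of 11758 genes at that minimum, 8.61% were called higher and 37.3% lower. Without the minimum 6 members passed the test, beside 37.2% of all 19037 genes. Among all called genes 18.8% were higher under the spike-in scaling and 44.5% under TMM, which called the same 4 members. Of the wider lists, 5 of 12 tested neural genes reached the minimum and 2 were called higher and 3 lower, with Neurod1, a neuronal transcription factor, rising by 1.88 while Tubb3, neuronal tubulin, and Ncam1, an adhesion molecule, fell by 1.89 and 1.47. Of the 13 mesendoderm and mesoderm genes only 1 reached the minimum, T (brachyury), which fell by 4.37, and without the minimum 3 of the list passed upward and 6 downward. The endoderm list, with 2 of 12 genes at the minimum, had 0 higher and 1 lower, the trophectoderm list 0 higher and 4 of 9 lower, the naive pluripotency list 0 higher and 10 of 11 lower, and the formative pluripotency list 8 of 9 higher. Their median log2 fold changes were −1.08 for neural, −0.72 for mesendoderm, −0.11 for endoderm, −0.30 for trophectoderm, −2.04 for naive and 1.89 for formative genes, beside −0.23 for all genes tested.

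At 72 h in N2B27, compared with RGd2 2i-p5, the neural and mesendoderm members split within each group. Nes rose most in level, from 3.52, 3.11 and 3.67 FPKM in 2i-p5 to 43.8, 49.7 and 44.2 at N72h (log2 fold change 3.79, SE 0.19, adjusted p = 4.62e-20, edgeR). This was the highest level of any member in the series, and the 3 libraries lay far above all others. Pax6 did not follow: it had 0.591, 0.561 and 0.643 FPKM in 2i-p5 and 0.0993, 0.149 and 0.105 at N72h, and passed the test downward (−2.34, SE 0.29, adjusted p = 5.62e-09, edgeR) below the expression minimum. With RGd2 2i as the reference, the value for Pax6 at N72h was −0.44 and did not pass (adjusted p = 0.252, edgeR). Sox1 passed it upward (3.16, SE 0.51), also below the minimum, with a mean of 0.410 ± 0.057 FPKM (SD, n = 3). Relative to N16h, where all 3 Sox1 libraries were above 1 FPKM, both Pax6 and Sox1 thus had lower levels at N72h, a contrast that was not fitted. Eomes had 2.16, 2.93 and 2.84 FPKM in 2i-p5 and 0.503, 0.540 and 0.631 at N72h (−2.20, SE 0.25, adjusted p = 6.53e-10, edgeR), its lowest level in any condition. Mixl1 and Cxcr4 passed the test downward below 1 FPKM, at −1.53 and −2.06. Mixl1 missed the threshold without RGd2 2i-p5 replicate 3 (−0.68, adjusted p = 0.438, edgeR) and without N72h replicate 8 (−1.23, adjusted p = 0.0806, edgeR).

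The GATA factors went the other way at N72h. Gata6 was counted 0, 1 and 3 times in RGd2 2i-p5 and 43, 52 and 345 times at N72h, where its FPKM was 0.626, 1.02 and 2.78. Its log2 fold change was 5.885 (adjusted p = 5.38e-05, edgeR). The summed counts per size factor differed 73.1-fold, with an exact 95% interval of 28.4 to 270 that covers counting error only. Replicate 9 held most of these counts, and without it the ratio was 31.9 (12.1 to 120), while without RGd2 2i-p5 replicate 3 it was 161 (28.7 to 6359). Gata4 had 0.692, 0.420 and 0.161 FPKM in 2i-p5 and 0.786, 0.878 and 3.24 at N72h (log2 fold change 2.17, SE 0.66, adjusted p = 0.00572, edgeR). Sox17 and Foxa2 passed the test upward below 1 FPKM, at 3.80 and 3.14, and against RGd2 2i Foxa2 did not pass (1.47, adjusted p = 0.0831, edgeR). In each of these 4 genes the highest N72h library was the clonal line, replicate 9. Without it Gata4 no longer passed (1.13, adjusted p = 0.193, edgeR), nor did Sox17 (2.73, adjusted p = 0.0576, edgeR), and Gata6 still passed the test but had a mean below 1 FPKM. Gata4 also missed the threshold without RGd2 2i-p5 replicate 3 (1.70, adjusted p = 0.0562, edgeR). Of the endoderm list, 5 of 12 tested genes reached the minimum, and 4 were called higher and 0 lower, led by Cubn, a receptor of visceral endoderm and kidney, at 8.45 and Dab2, an adaptor of endocytosis in primitive endoderm, at 5.46, with Amn at 3.16, and a list median of 2.18 beside 0.12 for all genes. Cubn had 2.45, 2.67 and 8.84 FPKM and Dab2 2.42, 2.34 and 5.75 at N72h, again highest in replicate 9, and their part in the rise of Gata4 and Gata6 was not tested.

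Of the 10 members, 3 were called higher and 1 lower at N72h, where 4 reached the expression minimum. Of 12253 genes at the minimum 34.2% were called higher and 22.9% lower, 59.9% of calls being higher under the spike-ins and 46.6% under TMM. Without the minimum all 10 members passed, 6 higher and 4 lower, beside 49.7% of all genes. In the wider mesendoderm and mesoderm list 2 of 13 genes reached the minimum and both were lower, T falling by 5.65 and Wnt3 by 2.04, and without the minimum 1 passed upward and 5 downward. Of 12 neural genes 6 reached it, 4 of them higher and 1 lower, with Sox3, a SOXB1 factor related to Sox1, up by 3.49 and Neurod1 by 3.36.

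**Figure D2:**
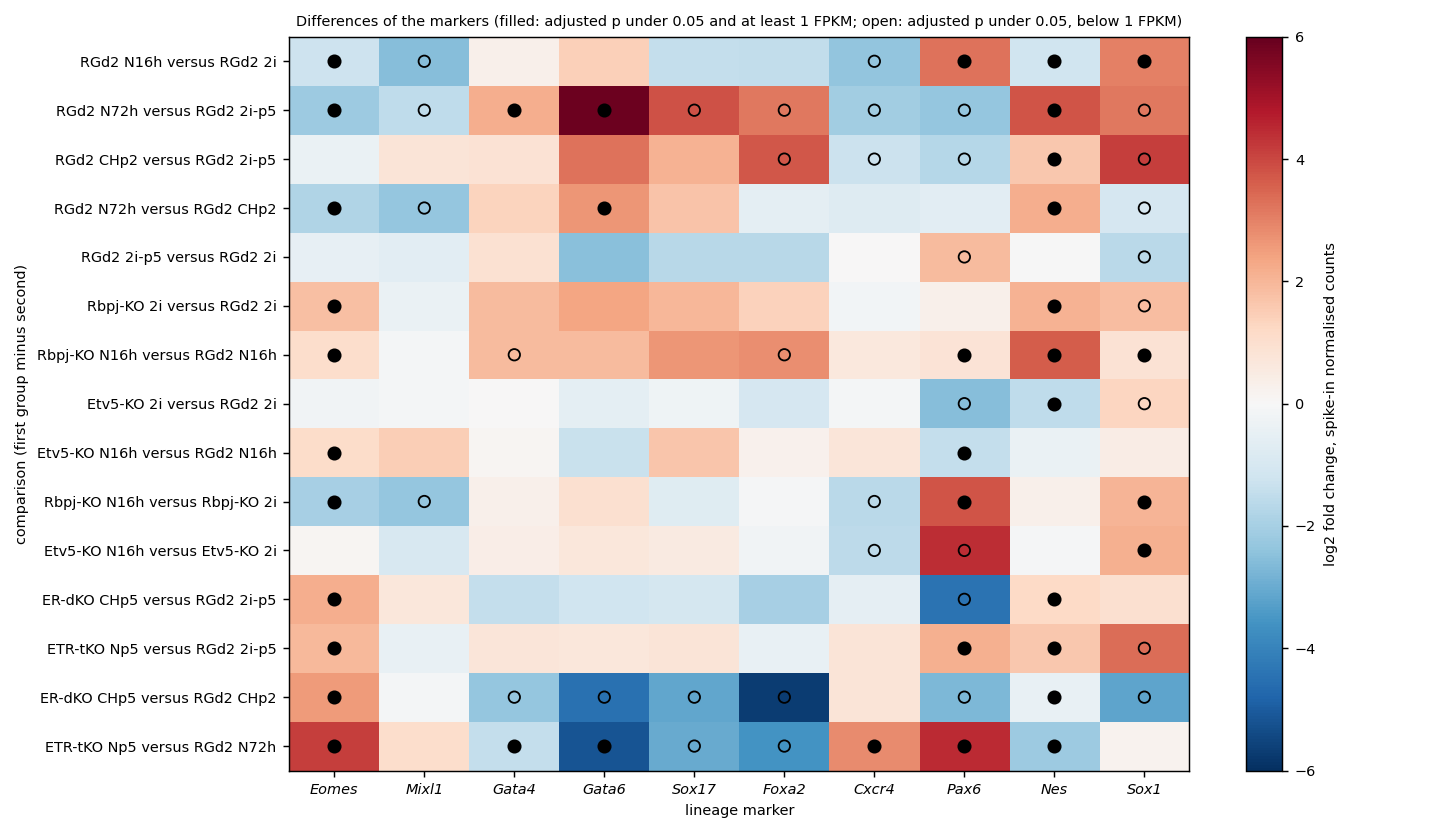
Log2 fold changes of spike-in normalised counts for the 10 markers (columns) in 15 comparisons (rows, first group minus second; red higher, blue lower). Filled circles mark an adjusted p under 0.05 with at least 1 FPKM in either group, open circles an adjusted p under 0.05 below 1 FPKM, and filled circles are most frequent in the columns of Eomes and Nes.

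In the GSK3 inhibitor alone, RGd2 CHp2, Nes was the only member called, with 10.2, 9.50 and 9.31 FPKM against 3.11 to 3.67 in 2i-p5 (log2 fold change 1.62, SE 0.18, adjusted p = 1.16e-09, edgeR). T, the mesoderm gene downstream of WNT signalling, had 67.1, 70.8 and 69.4 FPKM and rose by 3.72 (SE 0.22), and Fgf8, a signal of the streak, had 20.8, 20.4 and 14.9 and rose by 5.72. Eomes in the same libraries had 2.07, 1.82 and 1.83 FPKM and did not pass (−0.38, SE 0.23, adjusted p = 0.198, edgeR, approximate 95% interval −0.85 to 0.09). Mixl1 had 0.658, 0.673 and 0.338 (adjusted p = 0.225). T was thus called higher in libraries where Eomes was not. Mixl1 had a mean below 1 FPKM in both groups, so it could not be called, and it also did not pass the test. With RGd2 2i as the reference instead of 2i-p5, Eomes was called, lower.

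Foxa2, a forkhead factor of endoderm and node, had 0.570, 0.586 and 0.688 FPKM in CHp2, its highest condition, and passed the test below the minimum (3.71, SE 0.90, adjusted p = 0.000995, edgeR). It was counted 17, 27 and 21 times there and 0, 1 and 5 times in 2i-p5. Sox1 passed upward, with 0.690, 0.927 and 0.707 FPKM against 0.0186 to 0.0679 (4.16, SE 0.49), and Pax6 and Cxcr4 passed downward, at −1.73 and −1.29. Cxcr4 missed the threshold without RGd2 2i-p5 replicate 3 (−0.72, adjusted p = 0.270, edgeR) and without CHp2 replicate 5 (−1.19, adjusted p = 0.0642, edgeR). With the line as a block, Gata6 also passed upward (3.56, adjusted p = 0.00128, edgeR). The sign for Pax6 depended on the reference culture: Pax6 itself had passed the test at 1.90 between RGd2 2i-p5 and RGd2 2i, and against RGd2 2i its value in CHp2 was 0.18. Of 12063 genes at the minimum 28.6% were called higher and 13.5% lower, where 67.9% of calls were higher under the spike-ins and 43.3% under TMM. Without the minimum 5 members passed, beside 37.2% of all genes. Of the wider lists, 3 of 13 mesendoderm genes reached the minimum and 2 (T and Fgf8) were higher and 0 lower, 2 of 12 endoderm genes reached it and 0 were higher and 1 lower (Lama1, a laminin chain, at −1.95), 3 neural genes were higher and 2 lower, and 3 of 9 trophectoderm genes were higher and 2 lower. Without the minimum 6 mesendoderm genes passed upward and 2 downward, and 4 endoderm genes upward and 2 downward.

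Set directly against each other, RGd2 N72h had higher Nes (2.17, SE 0.17) and Gata6 (2.63, SE 0.84) and lower Eomes (−1.83, SE 0.25) than CHp2, which makes 2 members called higher and 1 lower, where 17.2% of 12159 genes were called higher and 19.8% lower. Without the minimum 5 passed, beside 30.5% of all genes. Gata6 lost this call without N72h replicate 9 (1.74, adjusted p = 0.171, edgeR), without CHp2 replicate 4 (2.28, adjusted p = 0.0685) or 5 (2.41, adjusted p = 0.0707), and under DESeq2. With the line as a block Gata4 was called as well (1.13, adjusted p = 0.0232, edgeR). The 3 of 13 mesendoderm genes that reached the minimum were all lower at N72h, T at −9.38, Fgf8 at −9.26 and Wnt3 at −2.31.

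Between the cultures in 2i, only Eomes and Nes reached the expression minimum, so no other member could be called. Neither was called between RGd2 2i-p5 and RGd2 2i by edgeR, where 2.89% of 11564 genes were called higher and 49.3% lower, 5.53% of those calls being higher under the spike-ins and 52.8% under TMM. Without the expression minimum 2 passed, Pax6 higher (1.90, adjusted p = 3.19e-06, edgeR) and Sox1 lower (−1.62, adjusted p = 0.0336, edgeR), beside 38.3% of all genes. The Pax6 libraries did not overlap, with means of 0.598 FPKM in 2i-p5 and 0.102 in 2i. The Sox1 result was lost under TMM (−1.27, adjusted p = 0.177, edgeR), under the size factors of DESeq2 and without RGd2 2i replicate 32 or 33 or 2i-p5 replicate 3 (−1.45 to −1.07). With the line as a block Gata6 passed downward (−3.01, adjusted p = 0.0116, edgeR), although its counts in 2i-p5 were 0, 1 and 3. Eomes missed the threshold (−0.49, SE 0.22, adjusted p = 0.0699, edgeR), and DESeq2 called it.

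In 2i, Eomes and Nes were higher without Rbpj. Eomes had 12.2, 11.1 and 9.87 FPKM in the Rbpj-KO 2i lines c28, c33 and c36 and 2.20, 2.41 and 5.79 in RGd2 2i (log2 fold change 1.79, SE 0.21, adjusted p = 2.60e-08, edgeR). Nes had 11.6, 12.99 and 13.3 against 3.26, 3.06 and 1.38 (2.10, SE 0.18, adjusted p = 2.23e-11, edgeR). The 3 lines lay close together and above every RGd2 library in both genes. These were the only 2 members called, and the only 2 at 1 FPKM, where 5.24% of 11556 genes were called higher and 6.11% lower, 46.2% of calls being higher under the spike-ins and 59.1% under TMM. Without the minimum 3 passed, beside 9.88% of all genes. The one below it was Sox1 (1.84, SE 0.40), a result that leaving out line c36 removed, with an adjusted p of 0.0635.

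Few genes of the wider lists reached the expression minimum in Rbpj-KO 2i or RGd2 2i. Of the mesendoderm list this was 1 of 13 genes, T, which was lower by 1.19, and without the minimum 0 passed upward and 2 downward. Of 12 neural genes 3 reached it, 2 of them lower, Cdh2 (N-cadherin) by 1.16 and Tubb3 by 1.13, and without it 0 passed upward and 4 downward. Of 12 endoderm genes 2 reached it, and Lama1 was called higher, by 1.78, while without it 4 passed upward and 0 downward. Of 9 trophectoderm genes 6 reached it and 3 were higher. Mixl1 and Cxcr4 had adjusted p-values of 0.716 and 0.866. The means of Pax6 were 0.158 and 0.102 FPKM (adjusted p = 0.647).

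At N16h all 3 neural members and Eomes were higher in Rbpj-KO than in RGd2, 4 members called higher and 0 lower against 18.8% of 11724 genes higher and 3.41% lower (84.6% of calls higher under the spike-ins, 57.8% under TMM). Nes had 16.3, 15.5 and 16.7 FPKM in c28, c33 and c36 and 1.40, 1.64 and 1.17 in RGd2, a log2 fold change of 3.62 (SE 0.19, adjusted p = 5.97e-18, edgeR) that is 12.3-fold. Eomes had 2.74, 2.94 and 3.07 against 1.67, 1.24 and 1.67 (1.05, SE 0.21, adjusted p = 0.000261, edgeR). Pax6 had 2.497, 2.31 and 2.31 against 1.75, 1.73 and 0.855 (0.80, SE 0.21, adjusted p = 0.00580, edgeR). Sox1 had 1.51, 1.68 and 2.47 against 1.13, 1.02 and 1.24 (0.86, SE 0.29, adjusted p = 0.0307, edgeR). In all 4 genes the groups did not overlap, which is a description without a share over all genes beside it. Without the minimum 6 passed, beside 17.7% of all genes. The Pax6 call rested on the low clonal RGd2 library and was lost without it (0.53, adjusted p = 0.0827, edgeR), and the Sox1 call was lost under TMM, under DESeq2 and without any 1 of RGd2 N16h replicates 22, 23 and 24 and Rbpj-KO N16h replicate 21, where its log2 fold change lay between 0.58 and 0.91. The wider neural list had 1 of 12 higher and 1 lower, Cdh2 falling by 0.72 and Ncam1 rising by 0.61, and none of the 13 mesendoderm genes reached the minimum, so none could be called; without it 1 passed upward and 1 downward. Of the endoderm list 4 of 12 reached it and all 4 were higher, with Cubn at 3.24, Lama1 at 2.64 and Dab2 at 2.22.

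Within Rbpj-KO, release from 2i lowered Eomes (−1.97, SE 0.20, adjusted p = 3.47e-10, edgeR) and raised Pax6 (3.78, SE 0.26) and Sox1 (2.05, SE 0.31), as in RGd2, so that 2 members were called higher and 1 lower, beside 11.6% and 16.2% of 11785 genes. Gata6 rose in FPKM in each of the 3 lines without passing (0.98, adjusted p = 0.359, edgeR), and with the line as a block it was called (1.48, SE 0.45, adjusted p = 0.0124, edgeR). Without the minimum 5 passed, beside 22.9% of all genes. Nes was the exception: it fell in RGd2 and had means of 12.6 and 16.1 FPKM in Rbpj-KO (0.30, SE 0.17, adjusted p = 0.208). The difference between the 2 responses was tested directly and was 1.52 for Nes (SE 0.25, adjusted p = 0.000131, edgeR), the only member called in that test, in which 3.77% of 12174 genes were called higher and 0.238% lower (94.1% of calls higher under the spike-ins, 68.5% under TMM). Without the minimum the count was also 1, beside 3.04% of all genes. Eomes fell further in Rbpj-KO than in RGd2 by 0.74 without passing (SE 0.29, adjusted p = 0.189, edgeR), and passed when RGd2 2i replicate 33 was left out (−1.06, adjusted p = 0.00791, edgeR).

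**Figure D3:**
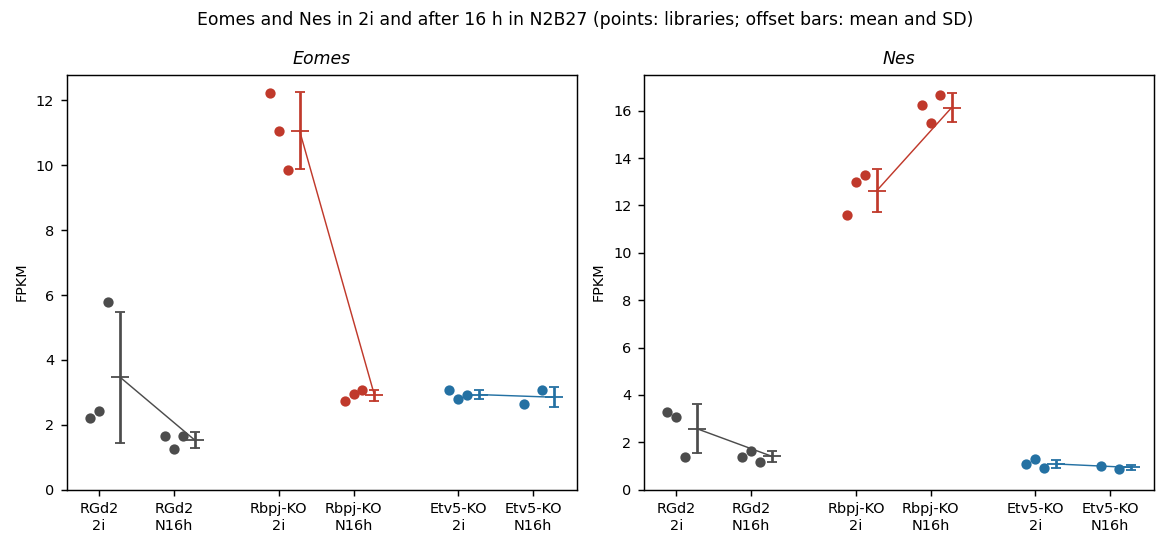
FPKM (y axis, linear from 0) of Eomes and Nes in 2i and at N16h in RGd2, Rbpj-KO and Etv5-KO; points are libraries and the offset bars are mean and SD. Rbpj-KO libraries lie at 9.87 to 12.2 FPKM of Eomes in 2i and fall to 2.74 to 3.07, and stay between 11.6 and 16.7 FPKM of Nes, above all RGd2 and Etv5-KO libraries.

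Because Eomes and Nes were both higher in Rbpj-KO than in RGd2, their upstream sequences are shown to let the pair be compared. Over the 11 condition means the pair had r = −0.05. RBPJ binds a core written GTGGGAA. RefSeq entries (GRCm38.p6) were matched by symbol for 6 of the 10 members, in 9 windows of 250 bases before a start, and none of these held GTGGGAA on either strand, against 5.42% of 32851 windows of that length. The TCF and LEF motif CTTTGAT, in 3.21% of windows, and the ETS motif CCGGAAG, in 6.91%, were also in none of the 9. The windows below are written 5′ to 3′ on the plus strand, on which both genes lie, and capitals mark CG dinucleotides, of which Eomes has 8 in 250 bases and Nes 14 in 235, with a median of 6 per 250 bases over all windows. The Eomes window is chr9:118477939-118478188 and that of Nes chr3:87970843-87971077, ending before the first base of the gene in the count table.
Eomes: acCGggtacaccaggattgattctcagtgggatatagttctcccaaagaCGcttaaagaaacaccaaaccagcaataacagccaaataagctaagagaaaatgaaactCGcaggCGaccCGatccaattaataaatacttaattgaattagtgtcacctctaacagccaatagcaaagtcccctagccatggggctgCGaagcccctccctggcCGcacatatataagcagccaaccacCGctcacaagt
Nes: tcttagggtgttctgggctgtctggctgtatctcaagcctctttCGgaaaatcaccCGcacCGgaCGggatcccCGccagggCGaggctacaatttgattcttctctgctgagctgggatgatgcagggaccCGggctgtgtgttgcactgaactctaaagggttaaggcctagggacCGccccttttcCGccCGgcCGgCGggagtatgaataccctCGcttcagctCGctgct
The share of G and C was 46.4% for Eomes and 58.7% for Nes, so the 2 windows differ in composition. Absence of a motif from these bases says nothing of sites elsewhere.

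In Etv5-KO the neural members Nes, in 2i, and Pax6, at N16h, were lower than in RGd2. In 2i Nes had 1.07, 1.28 and 0.904 FPKM in Etv5-KO lines c16, c17 and c1, below the 1.38 to 3.26 of RGd2 (log2 fold change −1.55, SE 0.19, adjusted p = 2.94e-08, edgeR). It was the only member called, 0 higher and 1 lower, where 6.10% of 11581 genes were called higher and 27.8% lower (18.0% of calls higher under the spike-ins, 55.4% under TMM). Eomes had 3.08, 2.78 and 2.93 FPKM and did not pass (−0.22, SE 0.21, adjusted p = 0.454, edgeR, approximate 95% interval −0.65 to 0.21). Without the minimum 3 passed, beside 27.8% of all genes, the others being Pax6, lower (−2.57, SE 0.39), and Sox1, higher (1.31, SE 0.40). Sox1 missed the threshold without RGd2 2i replicate 31 (0.92, adjusted p = 0.170, edgeR) or Etv5-KO 2i replicate 26 (1.17, adjusted p = 0.0507, edgeR). T was lower by 4.70, with 0.192, 0.256 and 0.216 FPKM against 3.25 to 5.95, the one gene called of 2 mesendoderm genes at the minimum, and without the minimum 1 of 13 passed upward and 3 downward.

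At N16h Pax6 was lower in Etv5-KO than in RGd2, with 0.446 and 0.497 FPKM against 0.855 to 1.75 (−1.43, SE 0.26, adjusted p = 4.07e-05, edgeR). Eomes was higher, with 2.63 and 3.07 against 1.24 to 1.67 (1.12, SE 0.23, adjusted p = 0.000209, edgeR). Neither overlapped with RGd2, and these were the members called, 1 higher and 1 lower, beside 29.2% and 3.24% of 11744 genes (90.01% of calls higher under the spike-ins, 57.5% under TMM). Without the minimum the count was also 2, beside 25.5% of all genes. Sox1, with 1.22 and 1.39 FPKM, did not differ detectably from RGd2 (0.42, SE 0.32, adjusted p = 0.359, edgeR), whereas Pax6 was lower. Nes did not pass (−0.40, adjusted p = 0.177) and was called lower under TMM. In the wider lists 2 of 12 neural genes, Ncam1 (1.10) and Tubb3 (0.72), and 5 of 9 trophectoderm genes were higher and 0 lower. None of 13 mesendoderm genes and 1 of 12 endoderm genes reached the minimum, so hardly any could be called, and without it 2 mesendoderm genes passed upward and 1 downward, and 1 endoderm gene upward.

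Within Etv5-KO, Sox1 rose from 2i to N16h (2.14, SE 0.33, adjusted p = 1.74e-06, edgeR), 1 member called higher and 0 lower beside 31.2% and 9.45% of 11839 genes (76.7% of calls higher under the spike-ins, 44.5% under TMM). Without the minimum 3 passed, beside 34.0% of all genes. Pax6 rose from 0.0158 to 0.0358 FPKM to 0.446 and 0.497, a log2 change of 4.42 below the minimum. Eomes and Nes, which fell in RGd2, had log2 fold changes of 0.11 and −0.07 here (adjusted p = 0.752 and 0.846). Their responses differed from those of RGd2 by 1.34 for Eomes (SE 0.31, adjusted p = 0.00130, edgeR) and 1.15 for Nes (SE 0.28, adjusted p = 0.00255, edgeR), 2 members called higher and 0 lower. In that test 36.6% of 12258 genes were called higher and 0.530% lower, and 27.6% of all genes passed without the minimum, where the members passing were again 2, with 98.6% of calls higher under the spike-ins and 65.1% under TMM, and the median of all genes was 0.47. Under TMM, which centres it near 0, the Eomes difference lost its call (0.88) and that of Nes kept it. With the line as a block the response of Pax6 was called as well (1.58, adjusted p = 0.0191, edgeR).

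The double mutant kept in the GSK3 inhibitor had high Eomes and Nes, with Foxa2, Gata6 and Sox17 near 0, as in RGd2 2i-p5. Eomes had 10.5, 9.86 and 10.7 FPKM in ER-dKO CHp5, against 2.16 to 2.93 in RGd2 2i-p5 (log2 fold change 2.19, SE 0.21, adjusted p = 3.99e-11, edgeR) and 1.82 to 2.07 in RGd2 CHp2 (2.57, SE 0.22, adjusted p = 5.14e-13, edgeR). Nes had 6.87, 6.78 and 6.21, above 2i-p5 (1.20, SE 0.18, adjusted p = 9.99e-07, edgeR) and slightly below CHp2 (−0.42, SE 0.17, adjusted p = 0.0400, edgeR). The second of these Nes differences did not pass under DESeq2, with total spike-in scaling or without any 1 of CHp2 replicates 4 and 5 and the 3 ER-dKO libraries, where it lay between −0.46 and −0.34. Without replicate 12, whose Rbpj level was that of RGd2 2i-p5, Eomes and Nes were still called against 2i-p5. Pax6 was counted 6, 22 and 12 times, 0.0125 to 0.0300 FPKM, and passed the test downward against both references (−4.43 and −2.70).

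Foxa2, Gata6 and Sox17 were at or near the floor in the double mutant, while Gata4 had 14 to 33 counts per library. Foxa2 was counted 0, 0 and 3 times, Gata6 0, 3 and 1 times and Sox17 2, 2 and 4 times. RGd2 2i-p5 was also low in these genes, with summed counts of 6, 4 and 7. The double mutant did not differ detectably from it (adjusted p = 0.264, 0.716 and 0.632, edgeR). Against the 65 counts of Foxa2 in RGd2 CHp2 the ratio was 64.9, with an exact 95% interval of 21.2 to 323 for counting error, and for Gata6 it was 24.7 (8.78 to 96.0). For Foxa2 it was 32.8 (10.7 to 163) without ER-dKO replicate 11, and replicate 12 held all 3 counts of the double mutant. For Gata6 it was 14.9 (4.68 to 62.2) without CHp2 replicate 6, where the test was no longer passed (−3.69, adjusted p = 0.0759, edgeR), and 49.9 (8.35 to 2029) without ER-dKO replicate 11. The streak genes of CHp2 were also lower in the double mutant, T by 3.77 and Fgf8 by 6.82, and Sox1 passed downward (−3.18). Against 2i-p5 2 members were called higher and 0 lower, with 33.8% and 8.42% of 11570 genes (80.1% of calls higher under the spike-ins, 52.7% under TMM), and 3 members passed without the minimum, beside 33.6% of all genes. Against CHp2 1 was higher and 1 lower, with 28.3% and 21.3% of 12090 genes, and 8 passed without the minimum, beside 44.5% of all genes. Of the wider lists against CHp2, 3 of 13 mesendoderm genes reached the minimum and all 3 were lower, 2 of 12 neural genes were higher and 3 lower with Sox3 at −4.95 and Ncam1 at 4.21, and 1 endoderm gene was higher, Lama1 at 3.58.

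The triple mutant in N2B27 without inhibitors had higher Pax6, Eomes and Nes than 2i-p5, a comparison in which genotype and medium both differ. Pax6 had 2.43, 2.22 and 2.18 FPKM in ETR-tKO Np5 against 0.561 to 0.643 in 2i-p5 (2.15, SE 0.23, adjusted p = 8.66e-10, edgeR). Eomes had 5.72, 10.97 and 9.44 (1.93, SE 0.21, adjusted p = 6.17e-10, edgeR), line (ETc1)Rc53 being the low one. Lines (Tc1)ERc2 and (Tc1)ERc10, whose labels share Tc1, differed by a chi-square per gene of 5.2, against 24.9 and 29.6 with (ETc1)Rc53. The SE may thus understate the spread between independent clones. Nes had 9.30, 9.07 and 8.72 (1.62, SE 0.18, adjusted p = 1.08e-09, edgeR). All 3 members lay above every 2i-p5 library and were called, 3 higher and 0 lower, where 37.6% of 11821 genes were called higher and 9.52% lower (79.8% of calls higher under the spike-ins, 47.5% under TMM). Without the minimum 4 passed, beside 38.8% of all genes. Sox1 passed upward below the minimum, at 0.254, 0.633 and 0.376 FPKM (3.35, SE 0.50). Cxcr4 had 1.53, 1.16 and 1.005 FPKM, its highest condition, and its libraries overlapped with 2i-p5. It did not pass (0.80, adjusted p = 0.0679, edgeR), and with the line as a block it was called (0.89, adjusted p = 0.0423, edgeR). The wider lists gave 3 of 12 neural genes higher and 0 lower (Ncam1 2.06, Neurod1 2.04, Tubb3 1.75) and the 2 of 13 mesendoderm genes that reached the minimum lower (T −4.81, Wnt3 −1.72).

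Against RGd2 N72h, the control culture that shares N2B27 with the triple mutant, 6 members were called, 3 each way. Pax6 (4.49, SE 0.27), Eomes (4.14, SE 0.24) and Cxcr4 (2.86, SE 0.40) were higher in ETR-tKO, and Nes (−2.17, SE 0.17), Gata6 (−5.19, SE 0.97) and Gata4 (−1.43, SE 0.59, adjusted p = 0.0387, edgeR) lower. Of 12342 genes 35.4% were called higher and 23.5% lower, 60.1% of calls being higher under the spike-ins and 49.1% under the size factors of DESeq2. Without the minimum 8 passed, beside 50.7% of all genes. Nes was thus intermediate in the triple mutant, above 2i-p5 and below N72h, with no overlap of libraries on either side. Gata6 was counted 11, 1 and 0 times in ETR-tKO, a ratio of 43.3 (exact 95% interval 24.6 to 84.5, counting error only). The ratio was 18.9 (10.3 to 37.9) without N72h replicate 9 and 296 (52.9 to 11730) without ETR-tKO replicate 13. Gata4 had 0.610, 0.436 and 0.599 FPKM, and its call was lost without N72h replicate 9 (−0.41, adjusted p = 0.637, edgeR), without any 1 ETR-tKO library (−1.52 to −1.32) and under DESeq2. Without replicate 9 Gata6 also lost its call, its mean at N72h then being below 1 FPKM. The endoderm list was lower in 3 of 12 genes, Cubn by 5.52, Dab2 by 3.68 and Lama1 by 3.06. Neural genes split evenly, 3 higher and 3 lower of 12, with Ncam1 at 3.53 and Sox3 at −2.88. Both mutant comparisons with 2i-p5 share their control libraries.

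The endoderm members differed between cell lines within a condition, a pattern noticed in the values. In Rbpj-KO, line c36 had 1.54 FPKM of Gata4 in 2i against 0.0574 and 0.191 in c28 and c33, and 1.78 against 0.347 and 0.285 at N16h. It had 1.57 of Gata6 against 0.0701 and 0.202 in 2i, and 2.69 against 0.388 and 0.913 at N16h. Sox17 was at 0.777 against 0.141 and 0.0426 in 2i, and at 0.504 against 0.0243 and 0.0889 at N16h. Foxa2 was at 0.743 against 0.126 and 0.143, and at 0.677 against 0.147 and 0.224. The same line was highest in all 4 genes in both cultures, which follows in part from the choice of the line by these values. It was also highest in 2 of 2 cultures for Nes and Sox1, in 1 of 2 for Eomes, Mixl1 and Pax6, and in 0 of 2 for Cxcr4. In a model with the line as a term, c36 exceeded the mean of the other 2 lines by 2.98 for Gata4 (SE 0.40), 2.86 for Gata6 (SE 0.43), 3.28 for Sox17 (SE 0.55) and 2.23 for Foxa2. The line was picked for its values of these genes, so the differences are a description and no p is given for them. c36 is 1 clone, whose libraries in 2i and at N16h stand as its replicates. Of 19037 genes 0.389% had an adjusted p under 0.05 upward and 0.0158% downward in this contrast, 74 and 3 genes. The differences were −0.03 for Eomes, 0.14 for Nes, 0.14 for Pax6 and 0.89 for Sox1.

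The endoderm list was also higher in the same line by its median. The line was picked for high endoderm genes, so this is a description and no count by p is given. The median over 12 tested genes was 2.27 beside 0.07 for all genes. Pdgfra was higher by 3.25, Sox7 by 3.25, Dab2 by 3.00, Cubn by 2.94 and Lama1 by 1.599. Not all of the list was high: Hnf4a was at 0.44, Amn at 0.38, Foxa3 at 0.17 and Gsc at −0.12. Without Lama1, the summed FPKM of that list was 8.52 in c36 and at most 3.94 in the other lines in 2i, and 12.4 against at most 3.89 at N16h. The list medians were 0.26 for trophectoderm, −0.07 for mesendoderm, 0.006 for neural, −0.004 for naive and 0.18 for formative genes. In the trophectoderm list the keratins Krt8 and Krt18 were higher by 0.72 and 0.75, and Cdx2 was at −1.03. Pdgfra is held by the mesendoderm list as well. The part of these genes in the levels of the 4 members was not tested.

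The clonal RGd2 line gave a like picture in most cultures. It was highest of the 3 RGd2 libraries for Gata6 in the 4 conditions in which any library had more than 3 counts, and for Gata4, Sox17 and Foxa2 in 4 of 5. It was also highest for Cxcr4 in 5 of 5, with a fitted line difference of 0.58 (SE 0.29). For Eomes, Mixl1 and Sox1 it was highest in 3 of 5, and for Pax6 and Nes in 1 of 5. For Gata6 it had 0.837 FPKM against 0.0423 and 0.00868 in 2i, 0.462 against 0.0746 and 0.177 in CHp2, 0.691 against 0.304 and 0.215 at N16h, and 2.78 against 0.626 and 1.02 at N72h. In 2i-p5 it was counted 3 times, which cannot be ranked. Fitted over the 5 conditions, and again as a description, the clonal line exceeded the parental cultures by 2.01 for Gata6 (SE 0.34), 1.73 for Sox17 (SE 0.42), 0.67 for Gata4 and 0.86 for Foxa2. Of all genes 0.184% had an adjusted p under 0.05 upward and 1.04% downward. This line too was picked for high endoderm genes, so the lists are described without counts by p. The endoderm list had a median of 0.83 and the neural list −0.35, beside −0.10 for all genes. Cubn was higher by 2.73, Sox7 by 1.66, Pdgfra by 1.49, Lama1 by 1.25 and Dab2 by 1.07. Others of the list were not, with Foxa1 at −0.95, Hnf4a at −0.33 and Foxa3 at −0.03. The clonal line gave 1 library per condition, so line and library cannot be told apart within a condition.

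**Figure D4:**
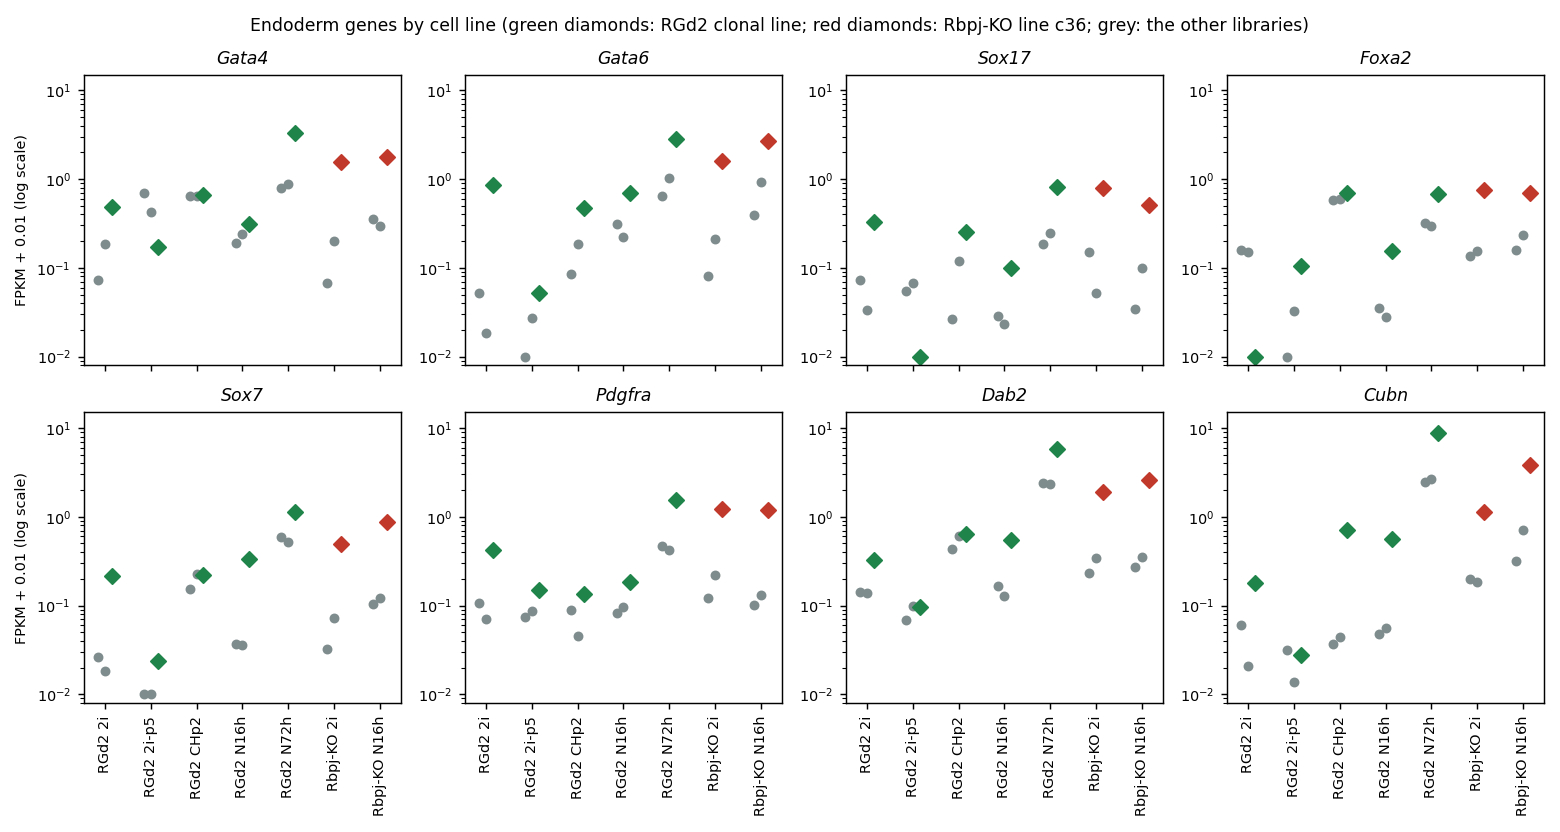
FPKM + 0.01 (y axis, log scale) of 4 markers (top) and 4 primitive endoderm genes (bottom) in the RGd2 and Rbpj-KO libraries; green diamonds are the RGd2 clonal line, red diamonds Rbpj-KO line c36, grey points the other libraries. Red diamonds lie above the grey points of their condition in all 8 genes, and green diamonds do so for Gata6 in all 5 RGd2 conditions, on 3 counts in 2i-p5, but not for Gata4 or Sox17 in 2i-p5 or Foxa2 in 2i. Both lines were picked for high endoderm genes, and not all genes of the endoderm list were higher in them.

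These lines bear on the comparisons of Rbpj-KO with RGd2, which hold c36 on one side and the clonal RGd2 line on the other. Gata4 and Foxa2 passed the test upward at N16h (1.92, SE 0.66, and 2.80, SE 0.81) below 1 FPKM. Without c36 Gata4 was at 0.53 (adjusted p = 0.731, edgeR) and Foxa2 at 1.83 (adjusted p = 0.210, edgeR), and Gata4 also missed the threshold without any 1 RGd2 N16h library (1.77 to 2.06) and Foxa2 without replicate 22 (2.45) or 23 (2.26). Gata6 and Sox17 missed the threshold at N16h, with adjusted p-values of 0.0653 and 0.0523, and with the line as a block both passed, Gata6 called at 1.56 (adjusted p = 0.00689, edgeR) and Sox17 below 1 FPKM at 1.96 (adjusted p = 0.0408, edgeR). With both lines left out of all comparisons, Eomes and Nes remained called as higher in Rbpj-KO in 2i and at N16h.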

How the data were processed

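RNA-seq of 32 mouse ESC libraries was analysed from gene counts. Per the labels and the study's methods, the authors used Trim Galore for trimming and TopHat2 for alignment against GRCm38/mm10 plus spike-ins, and counted uniquely mapped primary alignments by strand with featureCounts on Gencode models. The deposited values are raw counts for 51826 genes and 92 spike-ins. The labels name polyA RNA and the methods ribosomal depletion of total RNA, so low levels of transcripts without a tail cannot be compared with other studies.

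FPKM was computed here from counts, gene length and the library's gene total. Size factors were medians of ratios of 52 spike-ins, those detected in all libraries, so fold changes depend on the spike-in amounts. After filterByExpr, 19037 genes were fitted in 1 model of all libraries with edgeR 4.0.16 (quasi-likelihood) in R 4.3.3, with Benjamini-Hochberg adjustment. IDs without a symbol (193) held 0.0259% of the counts and were kept under their ID. All 10 markers are named, with the 3 targeted genes, up to 3 called genes of each list described with the largest change, and the 3 genes most alike in pattern to each marker that reached 1 FPKM. Lists of mesendoderm and mesoderm, endoderm, neural, trophectoderm, naive and formative genes, and the markers themselves, were chosen with earlier results of these data known. The contrasts between cell lines, and leaving out 2 lines, were chosen after seeing the values, and these contrasts use a model with the line as a term. The value of 1 gene of the endoderm list is not reported here. Scripts were tested on simulated data.

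Replicate numbers differ for every library, so pairing follows the clonal line. For lines sampled in 2i and at N16h, deviations from the group means correlated at 0.03 to 0.11 for Rbpj-KO, 0.003 to 0.01 for Etv5-KO and 0.17 for RGd2. Alternatives were TMM, DESeq2 1.42.0, total spike-in scaling, other filters and minimums, the reference culture, a model of only the compared libraries, the line as a block and leaving out each library. Intervals on counts cover counting error only, since reads carry no molecular identifiers. Mean ± SD is over libraries.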

Additional observations from a re-analysis of the deposited data

Results flagged for a closer look

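In 3 cases a member's response to release from 2i differed between a mutant and RGd2 in a direct test of that difference. In the Rbpj-KO test 3.77% of 12174 genes were called higher and 0.238% lower, with a median of all genes of 0.22. In the Etv5-KO test 36.6% of 12258 genes were called higher and 0.530% lower, with a median of 0.47. Nes differed by 1.52 on the log2 scale in Rbpj-KO (SE 0.25, adjusted p = 0.000131, edgeR). Nes also differed in Etv5-KO, by 1.15 (SE 0.28, adjusted p = 0.00255, edgeR). Eomes differed in Etv5-KO by 1.34 (SE 0.31, adjusted p = 0.00130, edgeR), and by 0.88 under TMM, where the adjusted p was 0.0875. Both tests share the RGd2 libraries.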

How the results depend on the processing

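Of 76 member differences with an adjusted p under 0.05, 53 kept it under every alternative that gave an adjusted p, and 23 lost it under at least 1. This count ignores the FPKM minimum, so a call could still be lost, as Gata6 at N72h versus 2i-p5 did without N72h replicate 9. Changes of the FPKM or fold minimum reuse the same p and could not alter this count. Without the FPKM minimum the members passing numbered 10 at N72h versus 2i-p5 (4 with it), 5 at CHp2 versus 2i-p5 (1), 5 at N72h versus CHp2 (3), 2 between the 2i cultures (0), 3 in Etv5-KO 2i (1), 5 within Rbpj-KO (3), 3 within Etv5-KO (1) and 8 in ER-dKO versus CHp2 (2). With RGd2 2i as reference CHp2 gave 2, and Pax6 there turned to 0.18. Between the 2i cultures no low-count filter and DESeq2 gave 1 each, and leaving out the clonal line gave 1. ER-dKO versus CHp2 gave 1 under total spike-in scaling, DESeq2 and a fold minimum of 1.5. The Rbpj-KO response gave 2 without the low-count filter, and the Etv5-KO response 1 under TMM and under DESeq2 size factors. Without the RGd2 clonal line and c36 there were 2 at N72h, 2 in Rbpj-KO N16h (4 with them) and 2 in the Rbpj-KO response.

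Leaving out 1 library gave 2 to 4 members at N72h versus 2i-p5, 0 to 1 between the 2i cultures, 1 to 2 in ER-dKO versus CHp2 and 1 to 2 in the Rbpj-KO response. Leaving out 1 of the 2 Etv5-KO N16h libraries assumed that the other varies like the remaining groups. Differences that had not passed changed sign as follows. Nes between the 2i cultures (−0.03) was 0.32 under TMM and 0.32 under DESeq2 size factors, 0.0060 under DESeq2, 0.021 in a model of only those libraries, and −0.29 to 0.27 without 1 library. Eomes in Etv5-KO 2i (−0.22) was 0.0064 under TMM, −0.42 to 0.096 without 1 library and 0.087 without the clonal line. Eomes within Etv5-KO (0.11) was −0.14 under TMM, −0.10 under DESeq2 size factors and −0.078 to 0.27 without 1 library. The causes were not tested.

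With the clonal line as replicate block, Nes between the 2i cultures was 0.032. The block removed no call, and added Gata4 at N72h versus CHp2 (4 members called), Gata6 in Rbpj-KO N16h (5) and within Rbpj-KO (4), Cxcr4 in ETR-tKO versus 2i-p5 (4) and Pax6 in the Etv5-KO response (3). Below the FPKM minimum it also brought past the threshold Sox17 at N72h versus CHp2 (1.57), Sox17 in Etv5-KO N16h (1.85) and Gata4 in ER-dKO versus 2i-p5 (−1.48). Depth limits Gata6, Sox17 and Foxa2, which had 3 counts or fewer in 11, 9 and 12 libraries. Scaling FPKM by the spike-ins moved 8 of 110 condition means by more than 1 SD.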
